A study of Drosophila melanogaster with 33 samples.

Results

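RNA editing was examined in Rdl and GluClalpha, the genes of 2 ligand-gated chloride channel subunits of the fly nervous system. All listed sites whose gene symbol is Rdl or GluClalpha were taken, which gave 9 of the 1350 sites, 3 in Rdl (CG10537, FBgn0004244) and 6 in GluClalpha (CG7535, FBgn0024963). RNA was sequenced from heads of Drosophila melanogaster aged 3 to 4 days, and the level of a site is the percentage of reads that carry the edited base. Polyadenylated mRNA was taken from yw (yellow white) flies in 2 libraries and from Canton S flies in 12 libraries over 6 times of day. Nascent RNA, which is RNA still bound to chromatin while it is transcribed, was taken from males of ADAR0, FM7a and yw in 2 libraries each of 40 to 45 heads. Nascent RNA of yw flies kept in light:dark cycles was sampled at 6 times in replicate sets 1 and 2, which gives 12 libraries, and 1 library holds yw genomic DNA. The labels describe all flies as entrained to 12 h of light and 12 h of dark, and do not give the sex of the flies other than the males above.

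RDL is a subunit of the receptor channel that opens to chloride when it binds GABA, the main inhibitory transmitter of the insect brain, and it is the target of the insecticide dieldrin, to which the gene owes its name. GluClalpha is the corresponding subunit of a chloride channel opened by glutamate, the target of ivermectin, and both belong to the Cys-loop receptor family together with the nicotinic acetylcholine receptors. The enzyme ADAR converts adenosine to inosine in double-stranded stretches of RNA, often where an exon pairs with a nearby intron, and sequencing reads inosine as guanosine. In coding sequence such a change can replace an amino acid of the channel. ADAR0 flies lack this enzyme and give the background of the measurement. FM7a is a strain with a balancer X chromosome that carries a functional enzyme.

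The 3 Rdl sites were all exonic and lay on chromosome 3L at positions 9148285, 9148318 and 9156017 of the dm3 build, and are called sites 1, 2 and 3. Sites 1 and 2 were 33 bases apart, and site 3 lay 7699 bases beyond them. The 6 GluClalpha sites lay on chromosome 3R and spanned 30991 bases. Site 1 at position 15560391 was intronic, sites 2 and 3 at 15579485 and 15579486 were exonic neighbours, site 4 at 15589356 was exonic, site 5 at 15591094 was intronic, and site 6 at 15591382 was exonic. All 3 Rdl sites were exonic, against 4 of 6 GluClalpha sites and 621 of all 1350 sites. The table does not say whether an exonic site is coding or in an untranslated region. Genomic DNA of yw flies covered the 9 sites with 42 to 61 reads, against a median of 44 over all sites.

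**Figure D1:**
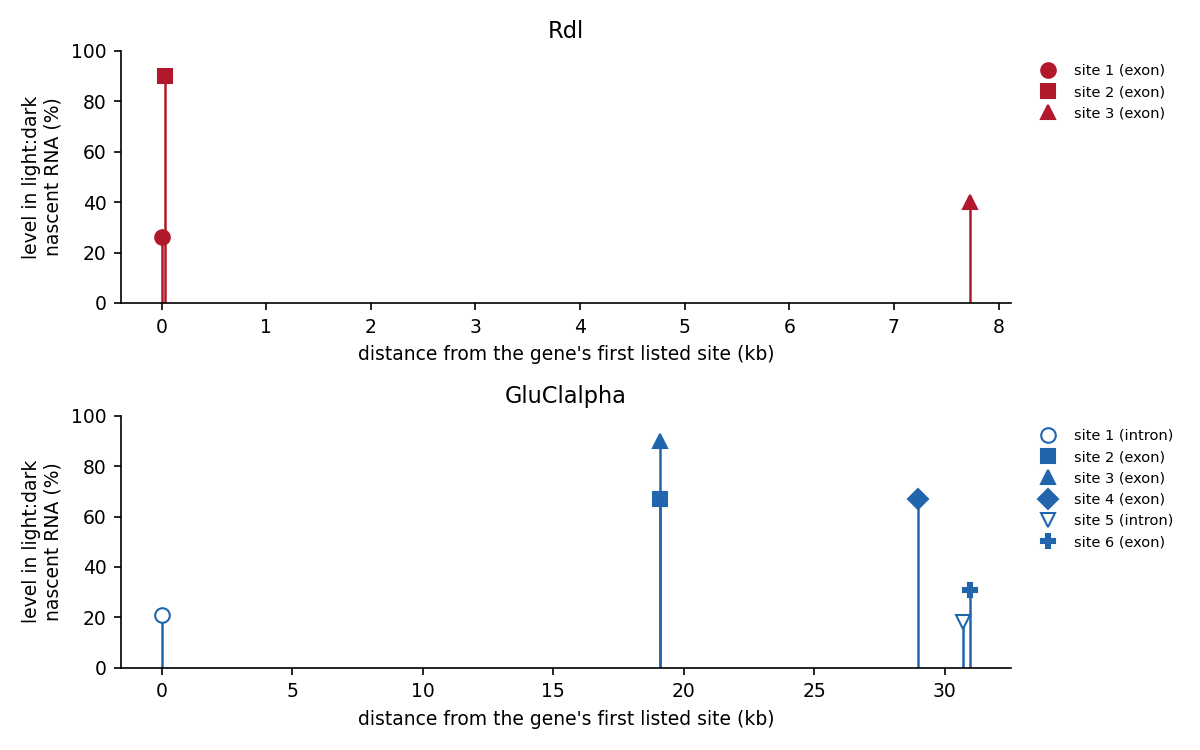
Level in nascent RNA pooled over the 12 light:dark libraries (percent) against distance from the gene's first listed site (kb), with exonic sites filled and intronic sites open. Each gene has a single exonic site at 90% and lower ones besides, and the intronic GluClalpha sites are at 21% and 18%.

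Libraries were pooled for each level and the number of RNA reads behind it is not known. No counting interval could be given, and for a site listed at 0 no upper limit could be set. Replicate error exists only for light:dark nascent RNA, as the spread between set 1 and set 2. It also holds a difference in preparation, as rRNA was depleted from set 1 per the labels. Over all sites the SD of a level between the sets was 4.61 points. It was 3.7 points over the 9 sites of Rdl and GluClalpha, with 1.73 points over the Rdl sites and 4.36 points over the GluClalpha sites. Over the 7 exonic sites it was 1.93 points. The sets lay over 10 points apart at 1 of the 9 sites, GluClalpha site 1, against 11% of all sites. With 1 pooled level per group no test between groups was possible. Even unpooled, 2 libraries a strain would limit an exact two-sided permutation test to a smallest p of 0.333. ADAR0 males were listed at 0 at 1181 of the 1341 sites with a value for them.

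Both genes were edited on the nascent transcript at levels from 18% to 90%. Rdl site 2 was at 91% in set 1 and 88% in set 2, a mean of 89.5 ± 2.12% (SD, n = 2 pools of 6 libraries). Rdl site 3 was at 40% in each set. Rdl site 1 was at 27% in set 1 and 24% in set 2, 25.5 ± 2.12%. The order of the 3 Rdl sites was therefore the same in each set, and the gaps between neighbours in it were larger than the spread between sets. The same order held in yw mRNA, Canton S mRNA, FM7a males and yw males.

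In GluClalpha the highest level was at site 3, with 89% in set 1 and 90% in set 2 (89.5 ± 0.707%). Site 2, on the base next to it, was at 65% and 69% (67 ± 2.83%), and site 4 was at 69% and 65% (67 ± 2.83%). Sites 2 and 4 could not be ordered, since each was the higher in 1 set. Site 6 was at 30% and 31% (30.5 ± 0.707%). The intronic sites were the lowest, with 13% and 26% at site 1 (19.5 ± 9.19%) and 21% and 16% at site 5 (18.5 ± 3.54%), and they could not be ordered either. Site 6 lay above both intronic sites in each set.

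Set against all listed sites, only 9 sites (0.667%) had a pooled nascent level above the 90% of Rdl site 2 and GluClalpha site 3. Only 75 (5.56%) lay above the 67% of GluClalpha sites 2 and 4. Rdl site 3 at 40% had 295 sites above it, GluClalpha site 6 at 31% had 437, and Rdl site 1 at 26% had 529. Among the 621 exonic sites alone, whose median was 27%, 8 (1.29%) lay above 90% and 63 (10.1%) above 67%. Of these exonic sites 204 (32.9%) lay above Rdl site 3, 276 (44.4%) above GluClalpha site 6 and 317 (51%) above Rdl site 1. The intronic GluClalpha sites at 21% and 18% lay near the median of all sites, which was 21%. The median was 40% over the Rdl sites and 49% over all GluClalpha sites. Over exonic sites alone it was 40% for Rdl and 67% for GluClalpha, and the exonic means were 52% and 63.75%. Over all sites, which adds the 2 intronic GluClalpha sites, the means were 52% for Rdl and 49% for GluClalpha. Their exonic ranges overlapped, at 26% to 90% in Rdl and 31% to 90% in GluClalpha.

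Sites that lay close together had unequal levels in every pool from flies with the enzyme that lists them both. GluClalpha site 3, which like its neighbour has nascent levels only, exceeded site 2 by 25 points in FM7a males, 25 in yw males, 24 in set 1 and 21 in set 2. Rdl site 2 exceeded site 1, 33 bases away, by 47 points in yw mRNA, 60 in Canton S mRNA, 82 in FM7a males, 80 in yw males and 64 in each nascent set. The table holds 78 pairs of sites on neighbouring bases, whose nascent levels differed by a median of 19 points, and 35 of them differed by as much as the GluClalpha pair or more. Of 322 pairs of successive sites at most 33 bases apart, 11 differed by as much as the Rdl pair or more, against a median of 12 points. The limit of 33 bases and the differences counted from were those of the Rdl and GluClalpha pairs, set after their values were seen. Both pairs are themselves among those counted, so the counts only describe where they lie.

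**Figure D2:**
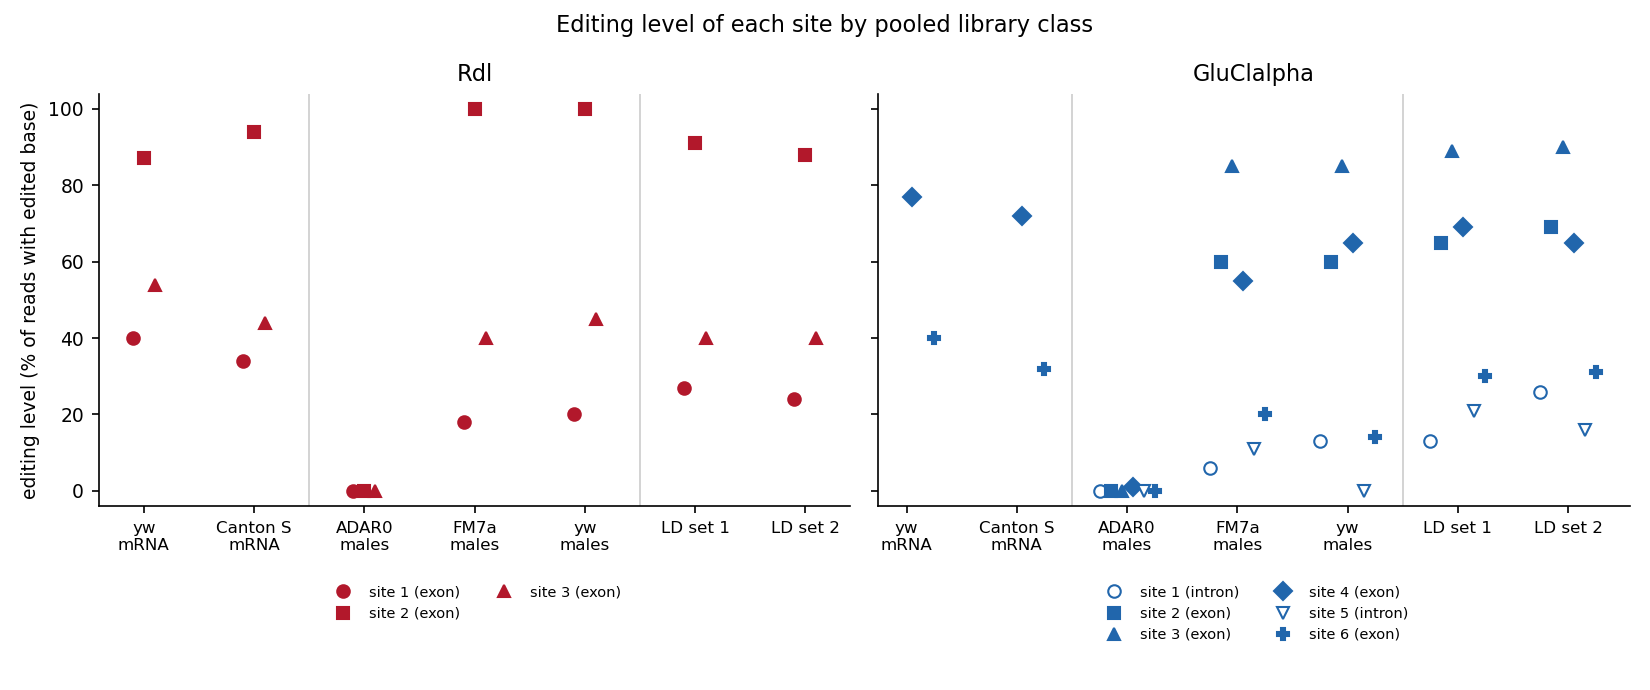
Editing level (percent of reads with the edited base) of each Rdl site (left) and GluClalpha site (right) in each pool, with exonic sites filled and intronic sites open. GluClalpha sites 1, 2, 3 and 5 have no mRNA level. In ADAR0 males every site is at 0 or 1%, and in the other pools Rdl site 2 stays between 87% and 100%.

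The spread over the 12 single light:dark libraries can be read only in part, as counting error at an unknown read depth adds to it. The authors' 5th percentile of the level over these libraries was 81% at Rdl site 2, 29% at site 3 and 7% at site 1. In GluClalpha it was 84% at site 3, 58% at site 2, 60% at site 4, 19% at site 6, and 4% at both intronic sites. The distance from the pooled level to this percentile was smallest at the high sites, with 6 points at GluClalpha site 3, 7 at site 4, and 9 at GluClalpha site 2 and Rdl site 2. It was 11 points at Rdl site 3 and 12 at GluClalpha site 6. The largest distance, 19 points, was at Rdl site 1, and the intronic sites had 17 and 14 points. Over all sites the median distance was 11 points.

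**Figure D3:**
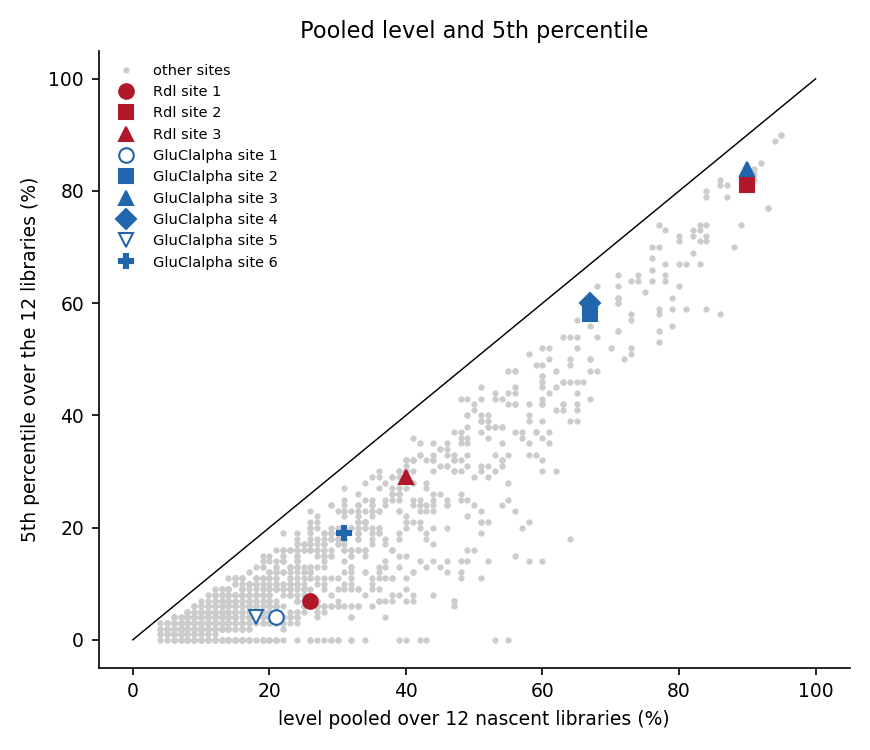
The 5th percentile over the 12 light:dark nascent libraries (percent) against the level pooled over them (percent), with the line of equality and all other sites in grey. The exonic GluClalpha sites lie 6 to 12 points under the line and Rdl site 1 lies 19 points under it.

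Levels in mature mRNA could be set beside those on the nascent transcript at 5 exonic sites. The light:dark nascent RNA is all from yw, so Canton S mRNA differs from it in strain as well as in RNA class. Sampling times also differ between each mRNA pool and the nascent sets, and these cannot be told apart. At 4 of the 5 sites the lower mRNA pool exceeded the higher nascent set, against 39.3% of the 257 sites with these levels. Taken alone, yw mRNA exceeded both sets at 4 of the 5, against 63.8%, and Canton S mRNA did so at all 5, against 50.6%. Rdl site 1 was at 40% in mRNA of yw and 34% in mRNA of Canton S, against 27% and 24% in the nascent sets. Rdl site 3 was at 54% and 44% in the mRNA pools, against 40% in each nascent set. GluClalpha site 4 was at 77% and 72% in the mRNA pools, against 69% and 65% in the nascent sets. GluClalpha site 6 was at 40% and 32% in the mRNA pools, against 30% and 31% in the nascent sets, so Canton S mRNA was 1 point above the higher set, which is the rounding step of the table. None of the 5 had both mRNA pools below both sets, against 8.95% of the 257 sites.

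Rdl site 2 was the exception. It was at 87% in mRNA of yw and 94% in mRNA of Canton S, against 91% and 88% in the nascent sets, so that yw mRNA lay below both sets and Canton S mRNA above both. Such opposite placement was seen at 16.3% of the 257 sites. The mean of the mRNA pools minus the pooled nascent level was 11 points at Rdl site 1, 0.5 at site 2 and 9 at site 3, and 7.5 at GluClalpha site 4 and 5 at site 6. Over all 257 sites the median of this difference was 5 points. The difference was 14, -3 and 14 points with yw mRNA alone at Rdl sites 1 to 3, and 8, 4 and 4 points with Canton S mRNA alone. At GluClalpha sites 4 and 6 it was 10 and 9 points with yw mRNA, and 5 and 1 with Canton S mRNA. The level was higher in yw mRNA than in Canton S mRNA at 4 of the 5 sites, by 5 to 10 points, against 63% of the 257 sites. The pools of the strains differ in number of libraries and sampling times as well, and these cannot be told apart.

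**Figure D4:**
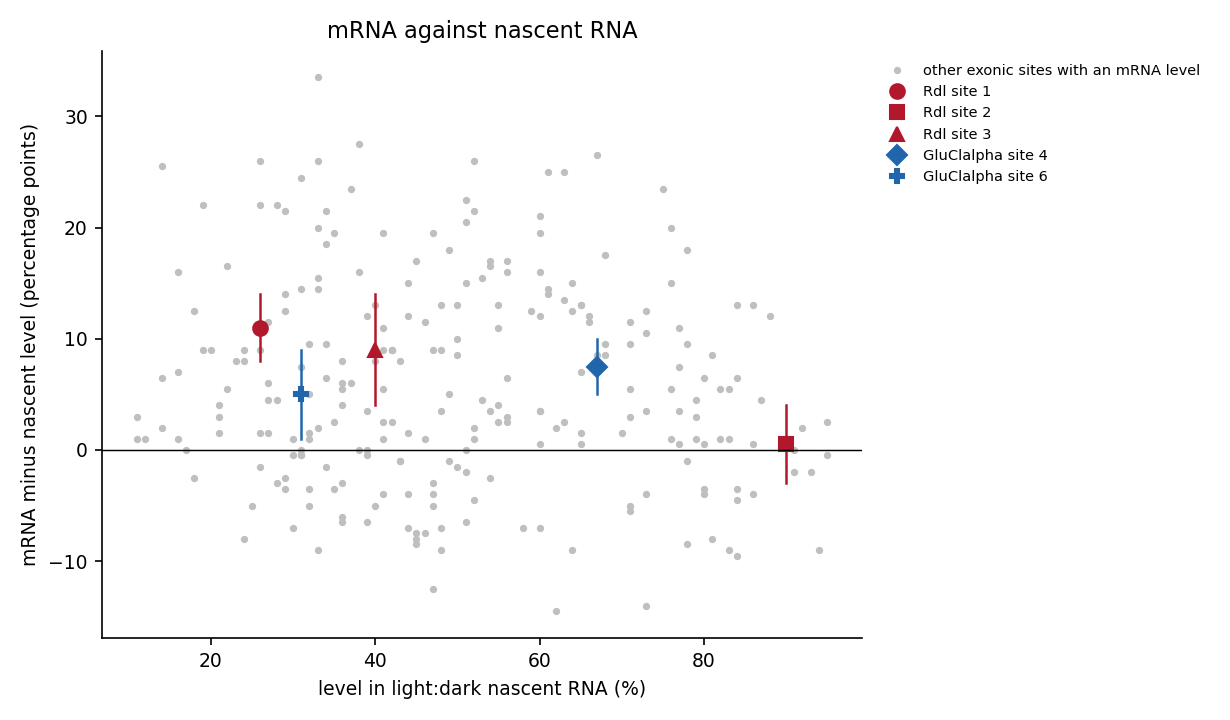
Difference of the mRNA level (mean of the yw and Canton S pools) and the pooled light:dark nascent level (percentage points) against the nascent level (percent), for all 257 sites with an mRNA level. Vertical lines join the values with yw mRNA alone and Canton S mRNA alone. They lie wholly above 0 at 4 of the 5 marked sites and cross 0 at Rdl site 2.

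The remaining exonic sites, GluClalpha sites 2 and 3, carry no mRNA level although their nascent levels were 67% and 90%. Among the 142 exonic sites at 50% or more in nascent RNA, 21 (14.8%) carry none, against 364 of 621 (58.6%) at any level. At 67% or more, a limit set at the level of site 2 after its value was seen, 4 of 67 exonic sites carry none, and GluClalpha accounts for 2 of these 4. No intronic site in the table has an mRNA level, which includes GluClalpha sites 1 and 5.

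In flies without the editing enzyme no site of either gene exceeded 1%. ADAR0 males were listed at 0 at all 3 Rdl sites and at 5 of 6 GluClalpha sites, and GluClalpha site 4 was at 1%. Most sites of the whole table were likewise at 0 in ADAR0 males, namely 1181 of 1341. ADAR0 lay below both FM7a and yw males at 8 of the 9 sites, against 73.9% of 1331 sites. Rdl site 2 was at 0% in ADAR0 males, 100% in FM7a males and 100% in yw males. Rdl site 3 was at 0% in ADAR0 males, 40% in FM7a males and 45% in yw males. Rdl site 1 was at 0% in ADAR0 males, 18% in FM7a males and 20% in yw males.

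In GluClalpha, site 3 was at 0% in ADAR0 males and 85% in both FM7a and yw males, and site 2 was at 0% in ADAR0 males and 60% in both. Site 4 was at 1% in ADAR0 males, 55% in FM7a males and 65% in yw males. Site 6 was at 0% in ADAR0 males, 20% in FM7a males and 14% in yw males. Intronic site 1 was at 0% in ADAR0 males, 6% in FM7a males and 13% in yw males. Intronic site 5 was at 0% in ADAR0 males, 11% in FM7a males and 0% in yw males, which makes it the site where ADAR0 was not below yw. The median of ADAR0 minus FM7a was -40 points over the Rdl sites and -37 points over the GluClalpha sites, against -11 points over all sites with both levels. The ADAR0 median was 0% in each case, so this difference follows the FM7a level. The FM7a medians were 40% for Rdl, 37.5% for GluClalpha and 11% over all sites.

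FM7a and yw males, which both carry the enzyme, were within 11 points of each other at all 9 sites. FM7a was over 10 points below yw males at 0 of the 9 sites, against 22.5% of 1336 sites, and over 10 points above them at 1, GluClalpha site 5, against 9.51%. FM7a minus yw was -2, 0 and -5 points at Rdl sites 1 to 3. At GluClalpha sites 1 to 6 it was -7, 0, 0, -10, 11 and 6 points. The deposited mark for a site seen in all 4 FM7a and yw male libraries was set at 6 of the 9 sites, against 45.1% of all sites. It was missing at Rdl site 1 and at both intronic GluClalpha sites, which had the lowest pooled nascent levels of the 9.

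**Figure D5:**
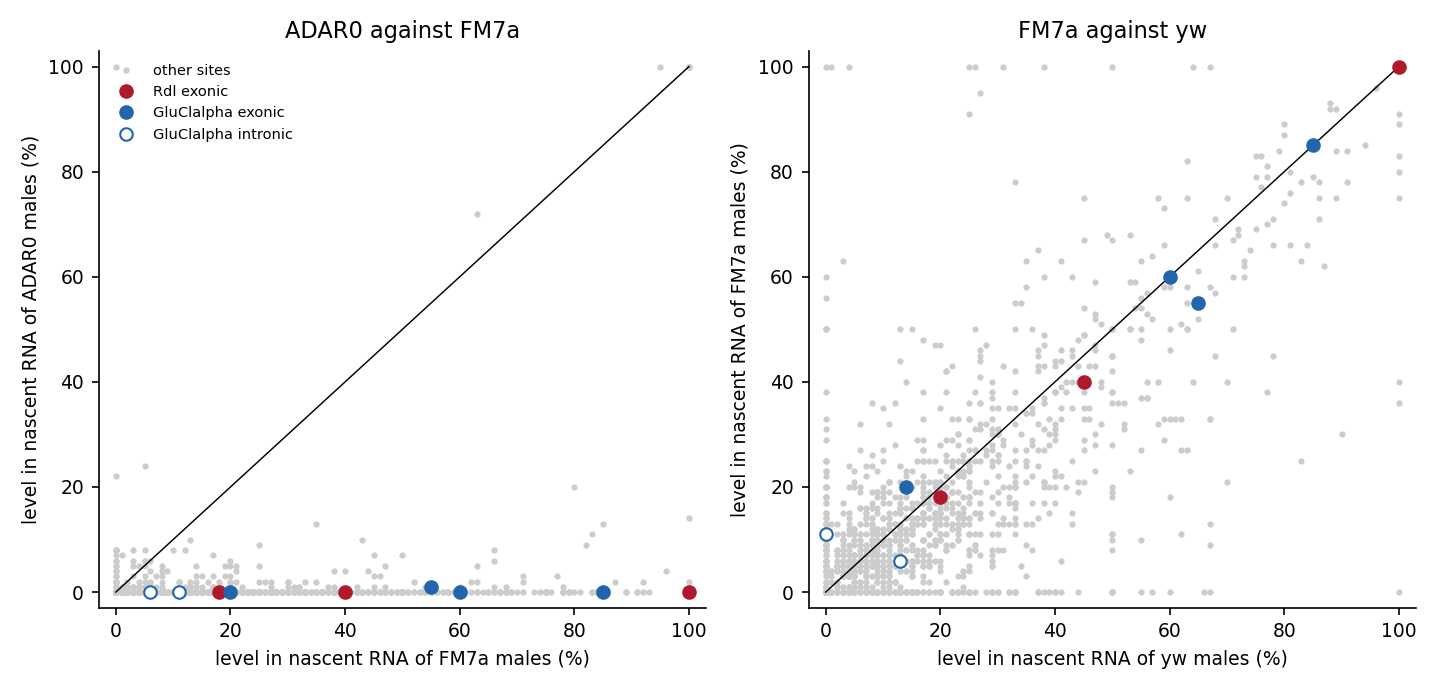
Levels in nascent RNA of males (percent): ADAR0 against FM7a (left) and FM7a against yw (right), with the line of equality and all other sites in grey. The marked sites lie at 0 or 1% in ADAR0 at every FM7a level, and within 11 points of equality between FM7a and yw.

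The male preparations can also be set against the light:dark heads of the same yw strain. Yw males lay above both nascent sets at 2 of 3 Rdl sites, site 2 (100% against 91% and 88%) and site 3 (45% against 40% in each), and below both at site 1 (20% against 27% and 24%). At GluClalpha yw males lay above both sets at none of 6 sites and below both at 4, namely sites 2, 3, 5 and 6. Over all 1346 sites, 20.7% lay above both sets and 62.6% below. FM7a males lay below both sets at 1 of 3 Rdl sites, site 1, and at all 6 GluClalpha sites, against 75.6% of all sites with these levels. For yw males the largest gaps were at GluClalpha site 5 (0% against 21% and 16%) and site 6 (14% against 30% and 31%). The median of yw males minus pooled light:dark nascent RNA was 5 points over the Rdl sites and -7.5 points over the GluClalpha sites, against -5 points over all sites. The difference between the genes was not tested. Sequencer and scale of preparation differ between these classes, the sex of the light:dark flies is not given, and these cannot be told apart.

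Rdl site 2 was 1 of 2 sites in the whole table at 100% in both FM7a and yw males. It was at 0% in ADAR0 males, and 46 reads of yw genomic DNA covered it. That is a count of reads, which does not give the base they carry, and no FM7a genomic DNA was sequenced. The number of RNA reads behind the 100% is not known.

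Other genes were compared by their median level in each of 7 pools (yw mRNA, Canton S mRNA, ADAR0, FM7a and yw males, set 1 and set 2), over sites with all of these levels. Of 48 genes with at least 2 such sites, the sodium channel gene para was nearest to Rdl, with a root mean square difference of 4.44 points over the pools. GluClalpha was next at 6.27 points, and CG1090 followed at 6.76 points. Nearest to GluClalpha were the channel gene NaCP60E at 2.88 points, the sodium-calcium exchanger gene Calx at 5.07 and hig, which encodes a secreted synaptic protein, at 5.27, with Rdl in place 6. The Rdl profile rests on 3 sites and that of GluClalpha on 2, all pools of a gene share these sites, and the measure is a description.

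Among related genes, the list of other Cys-loop chloride channels, which includes Grd, Lcch3 and the histamine receptor genes ort and HisCl1, had 0 of 11 genes with a listed site. Those 11 also include SsRbeta, which is a signal sequence receptor gene and not a channel gene. The list of GABA synthesis, transport and metabotropic receptor genes had 0 of 7, which include b, a gene whose enzyme makes beta-alanine. Of 18 genes for glutamate transport and other glutamate receptors, 2 had sites. CG11155, an ionotropic glutamate receptor subunit gene, had 5 sites with a median nascent level of 49%, and Nmdar1, an NMDA-type receptor subunit gene, had 2 with 16.5%. Of 10 nicotinic receptor subunit genes, 7 had 56 sites in all, with a median of 36.5%. Most were in nAcRalpha-30D, nAcRalpha-34E and nAcRalpha-80B, with 17, 14 and 9 sites. Of the 17 nicotinic sites with an mRNA level, 3 had both mRNA pools above the nascent sets and 4 had both below them, against 39.3% and 8.95% of all 257 sites. ADAR0 lay below both FM7a and yw males at 37 of 49 nicotinic sites, against 73.9% of all sites with these levels. Whether genes with no listed site were read deeply enough to find one is unknown.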

How the data were processed

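Each editing level is a fraction of reads with the edited base that the authors computed after pooling libraries, per the file headers, and deposited in steps of 0.01. It was multiplied by 100 to give percent. The genomic DNA coverage is a deposited read count, and the 5th percentile over 12 libraries is the authors' value. Per the submitters' processing notes, reads were aligned with TopHat to dm3, and CASAVA 1.6 or, for the male libraries, CASAVA 1.8 was used. The site caller, read filters and RNA depth are not given in the sources used here. Depth and normalization between libraries could therefore not be checked. Whether positions count from 0 or 1 is not stated.

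Differences in percentage points, medians and counts of sites were computed with Python 3.11.15, numpy 2.4.6 and pandas 2.3.3, and the counting rules were tested on simulated data. The mRNA level is the unweighted mean of both strains. The members and lists were chosen with earlier results of these data known. All 9 sites are named. The 3 genes of likest pattern and up to 3 genes with most sites per list are named by rule. List names were matched through the RefSeq gene table of Release 6, and all of them matched. Time of day was not analysed here, since levels are pooled over times.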

Additional observations from a re-analysis of the deposited data

Results flagged for a closer look

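At Rdl site 2 (chromosome 3L, position 9148318), mRNA of yw lay below both nascent sets and mRNA of Canton S above both. The levels were 87% in mRNA of yw and 94% in mRNA of Canton S, a difference of -7 points, with 91% and 88% in the nascent sets. Each strain has 1 pooled level, so the difference was not tested.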

How the results depend on the processing

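No paired analysis was possible because each deposited male and mRNA level pools its replicates. Of 109 alternative values, 73 did not change sign and stayed within 4.61 points (the SD of a level between nascent sets) or, for counts, within 1.5 times. Some of these could not differ, because the alternative kept the same sites. All Rdl sites are exonic, have an mRNA level and lie above 0 in FM7a and yw males. Only exonic sites have mRNA levels, and the minimum of genomic DNA reads removed no site. The count therefore overstates how far the results were tried. The 2 log2 ratios of mRNA to nascent RNA, 0.29 for Rdl and 0.18 for GluClalpha, were compared by sign alone and kept it.

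The alternatives for sites with both mRNA pools above both nascent sets, exonic sites alone for the ADAR0 comparison, and means over exonic sites were chosen after seeing the data. The median nascent level was 65% for Rdl and 67% for GluClalpha over sites seen in all control male libraries, and 67% for GluClalpha over exonic sites. For Rdl the median of mRNA minus nascent RNA was 14 points with yw mRNA alone and 4 points with Canton S mRNA alone or against yw males, and for GluClalpha it was 15.75 points against yw males. ADAR0 minus yw males was -45 points for Rdl, and ADAR0 minus FM7a over exonic sites was -57 points for GluClalpha.

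The median of Rdl minus that of GluClalpha changed most. It was -7.5, -8 and -9 points in set 1, set 2 and pooled nascent RNA, -27 points in each over exonic sites, and 4.83, 1.17 and 3 points with means over all sites. Means over exonic sites gave -10.6, -13.1 and -11.75 points, the direction of the exonic medians. With means, over all sites or exonic sites, it was also 1.83 points in mRNA of yw and 5.33 in mRNA of Canton S, where the medians gave -4.5 and -8. In yw and FM7a males it was 8 and 2.5 points, -17.5 in both over exonic sites, 15.5 and 13.2 points with means over all sites, and -1 and -2.33 with means over exonic sites. At Rdl site 2 the mRNA minus nascent difference of 0.5 points was -3 with yw mRNA alone, -0.5 without set 2 and -9.5 against yw males. Without either set the median of yw males minus light:dark RNA was -11 to -4.5 points for GluClalpha and 5 for Rdl. The cause of these changes was not tested. By largest difference, the genes most like Rdl were the same 3, and GluClalpha kept 2 of 3. The minimum of 30 genomic DNA reads kept all 9 sites.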
